A study of Mus musculus with 22 samples.

Results

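The genes described here are 33 genes of the lysosome. They comprise 9 genes of lysosomal proteases (8 cathepsins and legumain), 9 genes of lysosomal membrane proteins, hydrolases and lipid transfer proteins, 3 genes of the MiT/TFE family of transcription factors, and 12 genes of the vacuolar ATPase (V-ATPase), of which 5 encode subunits of the membrane sector V0 and 7 encode subunits of the catalytic sector V1. H3K27ac (histone H3 acetylated at lysine 27), which marks active promoters and enhancers, was measured by ChIP–seq in Kupffer cells, the macrophages that reside in liver sinusoids. The cells were sorted by FACS from liver non-parenchymal cells of mice given no treatment (labelled Control), with 3 libraries of A/J, 3 of BALB/cJ and 3 of C57BL/6J, and from CB6F1/J mice, the hybrids of BALB/cJ and C57BL/6J, with 3 further libraries. No group carried an engineered allele. The members are all windows of 1000 bases to which the deposited annotation gives the name of one of the 33 genes as that of the nearest transcription start site, which were 493 of 96381 windows and 33 of 17276 genes. The same names gave 968 of 217456 regions of 200 bases in the CB6F1/J hybrids. A window therefore belongs to a gene by distance alone, and neighboring windows can overlap.

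Lysosomes degrade what macrophages take up by phagocytosis and endocytosis, and Kupffer cells clear particles, dying cells and aged erythrocytes from the blood of the liver sinusoids. The V-ATPase pumps protons into the lysosome, with ATP hydrolyzed by the V1 sector and protons moved through the V0 sector, and the low pH that results activates cathepsins and other hydrolases. TFEB, MITF and their relatives bind E-box motifs in the promoters of many of these genes and raise their transcription.

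Tags in windows numbered 2291426 to 12980348 per parental library, and the 3 shallowest libraries were replicate 2 of each strain, which also differ from replicates 1 and 3 in how their counts were deposited. The labels do not say whether the libraries of a strain came from separate animals, so p-values measure the spread between these libraries, which may be technical. Of 11 marker genes of Kupffer cells, 10 had an active window nearest the start site in each strain (over 32 tags per 10000000), with summed levels of 948 to 1350 tags in A/J, 1130 to 1510 in BALB/cJ and 892 to 1760 in C57BL/6J. Markers of other liver cells were active at 0 of 4 hepatocyte genes, 0 of 1 stellate cell gene and 0 of 2 B cell genes with a window. For sinusoidal endothelial cells, 2, 1 and 0 of 7 genes were active in the A/J, the BALB/cJ and the C57BL/6J libraries, with summed levels of 88.8 to 101, 65.8 to 116 and 52.5 to 91.9 tags. T and NK cell markers were active at 1, 1 and 0 of 2 genes, with 23.1 to 72.7, 46.6 to 78.3 and 19.9 to 24.3 tags in the same order. Markers of monocytes and neutrophils were active at 1 of 5 genes in every strain, with 258 to 352 tags in A/J, 290 to 334 in BALB/cJ and 237 to 531 in C57BL/6J. The part of these cells in the results was not tested, and in such pooled cells a smaller share of cells with the mark and less of the mark per cell cannot be told apart.

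Promoter sequences of the 4 genes below show the motifs that MiT/TFE factors are known to bind. In the 250 bases before a RefSeq start site (GRCm38, the assembly also called mm10), 26 of the 33 genes could be matched, with 35 start sites. The E-box CACGTG lay in 9 of the 35 promoters (25.7%), against 6.02% of 32851 promoters of all genes. Its extended form TCACGTGA, which contains CACGTG, was found in 4 (11.4%), against 0.785% of all, and TCATGTGA was found in 2 (5.71%), against 0.846%. Both strands were searched. *Ctsd* (cathepsin D, an aspartic protease), *Mcoln1* (a calcium channel of the lysosomal membrane) and *Atp6v1a* (the V1 subunit A, which hydrolyzes ATP) carry TCACGTGA, and *Grn* (progranulin) carries TCATGTGA, read here as its reverse complement. Capitals mark these motifs and any further CACGTG, and the sequences run 5′ to 3′ toward the start site.
*Ctsd* promoter, chr7:142387828-142388077, minus strand: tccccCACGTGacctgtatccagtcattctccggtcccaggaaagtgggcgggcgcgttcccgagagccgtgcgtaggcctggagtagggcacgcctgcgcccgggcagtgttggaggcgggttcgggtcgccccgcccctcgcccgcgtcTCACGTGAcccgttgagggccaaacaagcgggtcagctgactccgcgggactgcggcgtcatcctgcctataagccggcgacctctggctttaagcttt
*Mcoln1* promoter, chr8:3500269-3500518, plus strand: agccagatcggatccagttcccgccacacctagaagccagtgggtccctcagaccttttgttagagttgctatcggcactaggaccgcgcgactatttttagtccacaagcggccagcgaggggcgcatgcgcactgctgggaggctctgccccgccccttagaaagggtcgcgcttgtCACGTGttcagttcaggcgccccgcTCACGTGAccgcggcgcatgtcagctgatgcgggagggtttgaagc
*Atp6v1a* promoter, chr16:44139260-44139509, minus strand: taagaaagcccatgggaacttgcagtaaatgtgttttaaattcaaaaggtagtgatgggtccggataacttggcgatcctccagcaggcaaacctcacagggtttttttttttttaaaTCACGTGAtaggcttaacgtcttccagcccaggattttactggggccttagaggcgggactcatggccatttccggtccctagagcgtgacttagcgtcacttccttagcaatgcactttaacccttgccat
*Grn* promoter, chr11:102430257-102430506, plus strand: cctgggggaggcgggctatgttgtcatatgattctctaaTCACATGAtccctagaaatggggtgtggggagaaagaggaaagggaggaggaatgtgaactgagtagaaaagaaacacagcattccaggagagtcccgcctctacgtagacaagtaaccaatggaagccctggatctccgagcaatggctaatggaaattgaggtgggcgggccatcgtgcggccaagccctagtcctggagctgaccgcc

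The same motifs were counted in the H3K27ac windows of 1000 bases. CACGTG lay in 79 of 417 windows of the lysosomal genes that passed the filter on low counts (18.9%), against 16.8% of 60325 windows. In windows annotated as promoters, CACGTG lay in 14 of 45 (31.1%), against 22.1% of 12554, TCACGTGA in 6 (13.3%), against 2.97%, and TCATGTGA in 4 (8.89%), against 2.39%. These matches describe letters in a sequence, and no binding was measured. The next 3 sequences, all from the C57BL/6J reference genome, are shown because they lie in a pair of called windows and a called allelic region described below. They are the middle 200 bases of the windows and the whole allelic region, and none of the 3 motifs occurs in the letters printed, so they hold no capitals. The *Ctsd* window of 1000 bases holds CACGTG outside its middle part.
*Ctsd* window at +3388, middle, chr7:142384382-142384581, plus strand: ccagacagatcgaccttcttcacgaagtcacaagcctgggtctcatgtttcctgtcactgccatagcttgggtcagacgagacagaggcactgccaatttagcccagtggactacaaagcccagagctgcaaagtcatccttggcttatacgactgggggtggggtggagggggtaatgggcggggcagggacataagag
*Ctsh* window at +2353, middle, chr9:90056520-90056719, plus strand: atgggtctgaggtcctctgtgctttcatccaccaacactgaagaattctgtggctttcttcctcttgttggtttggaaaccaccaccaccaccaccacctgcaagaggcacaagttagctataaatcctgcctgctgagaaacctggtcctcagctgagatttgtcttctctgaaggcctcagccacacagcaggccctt
*Atp6v1b2* allelic region at -739, chr8:69087897-69088096, plus strand: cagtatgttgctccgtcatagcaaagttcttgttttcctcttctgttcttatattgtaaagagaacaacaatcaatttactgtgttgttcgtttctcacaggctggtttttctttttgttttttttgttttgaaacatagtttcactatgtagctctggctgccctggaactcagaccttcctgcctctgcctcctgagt

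H3K27ac was high at the start sites of most of these genes in all 3 strains. The window nearest the start site held a mean of 6.13 to 771 normalized tags over the 9 libraries, with a median of 295 over the 33 genes. All 12556 tested windows annotated as promoters had a median of 138. That larger set was chosen differently, since a gene can hold several promoter windows, some away from its start site. The 2 medians are therefore not a like comparison, and their difference was not tested. Because every window spans 1000 bases, these levels can be compared between genes per length. *Ctsz* (cathepsin Z, a carboxypeptidase) had the highest level, with 802, 831 and 836 tags in the A/J libraries, 654, 556 and 939 in BALB/cJ and 665, 573 and 1083 in C57BL/6J. The strains overlapped at *Ctsz*, and the lowest and the highest library were both outside A/J. *Atp6v0c*, the proteolipid that forms the proton-carrying ring of V0, was next, with 613, 581 and 690 tags in A/J, 625, 691 and 681 in BALB/cJ and 701, 615 and 957 in C57BL/6J. *Atp6v1a* had 693, 475 and 615 tags in A/J, 717, 458 and 644 in BALB/cJ and 509, 428 and 809 in C57BL/6J. The annotation counts this window as the promoter of another gene, *Naa50*, so its tags cannot be given to *Atp6v1a* alone. The same holds for the start site window of *Atp6v1d*, which is annotated as the promoter of *Eif2s1*. Replicate 2 was the lowest of its strain at *Atp6v1a* in all 3 strains.

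In the group of membrane proteins, hydrolases and lipid transfer proteins, *Hexa*, the alpha subunit of beta-hexosaminidase, was the highest, with 533, 421 and 571 tags in A/J, 535, 442 and 638 in BALB/cJ and 478, 398 and 581 in C57BL/6J. Among the MiT/TFE factors the highest start site was that of *Tfec*, a member of the family with expression in macrophages, with 189, 131 and 311 tags in A/J, 144, 128 and 215 in BALB/cJ and 193, 135 and 222 in C57BL/6J. In the order of these means, libraries of *Ctsz* and *Atp6v0c*, of *Atp6v0c* and *Atp6v1a* and of *Atp6v1a* and *Hexa* overlapped, whereas every library was higher at *Hexa* than any was at *Tfec*. *Atp6v0d2*, the macrophage and osteoclast isoform of the V0 subunit d, had almost no tags at its nearest window, 3518 bases into the gene, with 8.10, 0 and 8.41 tags in A/J, 7.60, 2.29 and 8.76 in BALB/cJ and 9.33, 0 and 10.7 in C57BL/6J. Its highest window, named here after its values were seen, lay in an intron at +27223 and held 328, 285 and 443 tags in A/J, 416, 334 and 525 in BALB/cJ and 400, 291 and 548 in C57BL/6J. Of the 33 genes, 22 had their highest window within 1000 bases of the start site and 11 had it farther away.

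**Figure D1:**
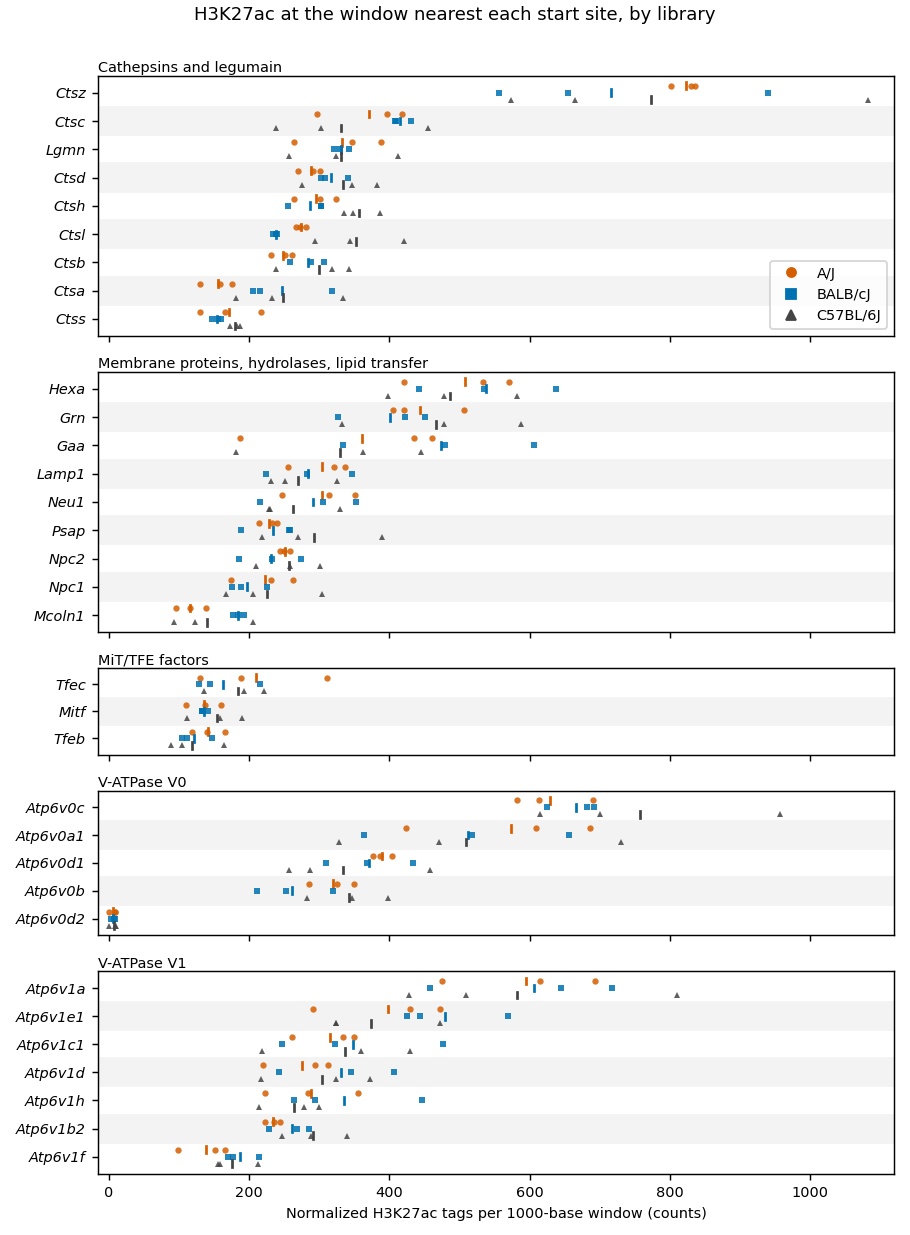
H3K27ac at the window nearest the start site of each of the 33 genes, in normalized tags per 1000-base window on a linear axis that includes 0. Each point is 1 library, circles for A/J, squares for BALB/cJ and triangles for C57BL/6J, vertical ticks are strain means (n = 3), and genes are ordered within their role by the mean over all libraries, from *Ctsz* (771) to *Atp6v0d2* (6.13), with the points of the 3 strains overlapping at most genes.

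No start site window differed between strains past the test (edgeR quasi-likelihood, with an adjusted p under 0.05 and a log2 fold change above 1 or below -1). Of the 33 windows, 32 were tested, and 0 were called in each of the 3 comparisons by edgeR and by DESeq2. At an unadjusted p under 0.05 there were 2, 1 and 1 for A/J over BALB/cJ, A/J over C57BL/6J and BALB/cJ over C57BL/6J. Of all 12556 tested promoter windows, edgeR called 1.55%, 2.76% and 3.73% in that order, so 0 of 32 lay near these shares. At an unadjusted p under 0.05 there were 1041, 1517 and 1662 of the 12556. The log2 fold changes of the 32 windows ranged over -0.66 to 0.39, -0.68 to 0.22 and -0.58 to 0.51 in the same order, with a median standard error of 0.24. The lowest adjusted p belonged to *Ctsa*, the protective protein of beta-galactosidase and neuraminidase, in both comparisons of A/J. It had 159, 131 and 176 tags in A/J, 215, 206 and 318 in BALB/cJ and 232, 182 and 333 in C57BL/6J, so that the 3 A/J libraries were the lowest of the 9. The log2 fold change was -0.66 ± 0.24 for A/J over BALB/cJ (SE, adjusted p = 0.168) and -0.68 ± 0.24 for A/J over C57BL/6J (adjusted p = 0.0919). At *Ctsl* (cathepsin L, an endopeptidase) the levels were 281, 273 and 267 tags in A/J, 239, 240 and 234 in BALB/cJ and 344, 293 and 420 in C57BL/6J, with a log2 fold change of -0.58 ± 0.21 for BALB/cJ over C57BL/6J (adjusted p = 0.0822). Another promoter window did pass the test for *Atp6v1b2*, as given below.

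Active windows, those with a mean over 32 HOMER-normalized tags per 10000000 in a strain, made up 66.5% of the 493 windows in A/J (95% Wilson interval 62.3 to 70.6), 66.1% in BALB/cJ (61.8 to 70.2) and 65.9% in C57BL/6J (61.6 to 70.0). Over all 96381 windows these shares were 40.3%, 41.5% and 40.4%. The intervals cover counting error only, and neighboring windows are not independent. Of 345 windows of the lysosomal genes active in any strain, 306 (88.7%) were active in all 3 strains, against 77.6% for all windows. Of the 345, 8, 8 and 1 were active in A/J, BALB/cJ or C57BL/6J alone, against 1198, 2119 and 1988 of 44349 windows in all. Windows of the lysosomal genes were more often active, so these shares do not compare windows of like level.

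Among 417 tested windows of the 33 genes, 21 windows at 9 genes (5.04%) were called in at least 1 strain comparison, against 12.3% of the 60387 windows tested in all. The 417 windows had a median of 121 tags, against 72.5 over all tested windows. The shares here and below therefore do not compare windows of like level, and their difference was not tested. In A/J over BALB/cJ, 7 were called (1.68%, against 3.63% of all windows), of which 2 were higher in A/J (against 1.40% of all windows in that direction) and 5 were higher in BALB/cJ (against 2.23%). In A/J over C57BL/6J, 9 were called (2.16%, against 7.09%), 4 of them higher in A/J (3.16% of all windows) and 5 higher in C57BL/6J (3.93%). In BALB/cJ over C57BL/6J, 16 were called (3.84%, against 8.56%), 6 of them higher in BALB/cJ (4.46% of all windows) and 10 higher in C57BL/6J (4.10%). The median log2 fold change over the 417 windows was 0.03, -0.09 and -0.11 in these comparisons, against 0.01, -0.01 and -0.01 over all windows. Without C57BL/6J replicate 3 the medians of the 2 comparisons with C57BL/6J were 0.04 and 0.00, against 0.05 and 0.04 over all windows, and the calls numbered 5 and 10. The 3 comparisons share libraries, and 11 of the 21 windows were called in 2 of them and none in 3.

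By role, cathepsins and legumain held 11 of the 21 windows, among 180 tested and at 5 of 9 genes. The V1 sector held 8, among 55 tested and at 2 of 7 genes. In the 3 comparisons in the order above, 1.11%, 2.22% and 5.56% of tested windows were called for cathepsins and legumain. For V1 these shares were 9.09%, 7.27% and 7.27%, against 3.63%, 7.09% and 8.56% of all windows, and 7 of its 8 windows belonged to *Atp6v1b2*. The V0 sector and the group of membrane proteins, hydrolases and lipid transfer proteins held 1 window each, among 38 and 86 tested. The MiT/TFE factors held 0 of 58 tested windows by edgeR and by DESeq2, with 5, 7 and 7 windows at an unadjusted p under 0.05 in the 3 comparisons in the order above. Over all 60387 tested windows these numbers were 8529, 11625 and 13469, a larger share in each comparison. By position, the calls covered 8 of 138 tested intergenic windows (against 16.8% of all intergenic windows called in at least 1 comparison), 9 of 211 in introns (12.9%), 2 of 7 in 3′ UTRs (16.5%), 1 of 8 in exons (10.6%) and 1 of 45 at promoters (5.27%). For 24 of the 33 genes no window was called. Their number includes *Ctsb*, *Ctsc*, *Ctsz* and *Ctsa* among cathepsins, *Lamp1*, *Psap* and *Hexa* among other lysosomal proteins, and *Tfeb*, *Mitf* and *Tfec*. Input tags at the 21 windows were 0.857 to 19.7 per 1000000 input tags in windows, with medians of 8.34, 8.0 and 8.57 for the inputs of A/J, of BALB/cJ and of C57BL/6J, against 9.05, 9.27 and 8.57 over all tested windows. C57BL/6J had only 1 input, with 583517 tags in windows, against 3535141 and 2750319 in the 3 inputs of A/J and the 3 of BALB/cJ. Both ends of the range are C57BL/6J values that rest on 0.5 and 11.5 input tags.

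**Figure D2:**
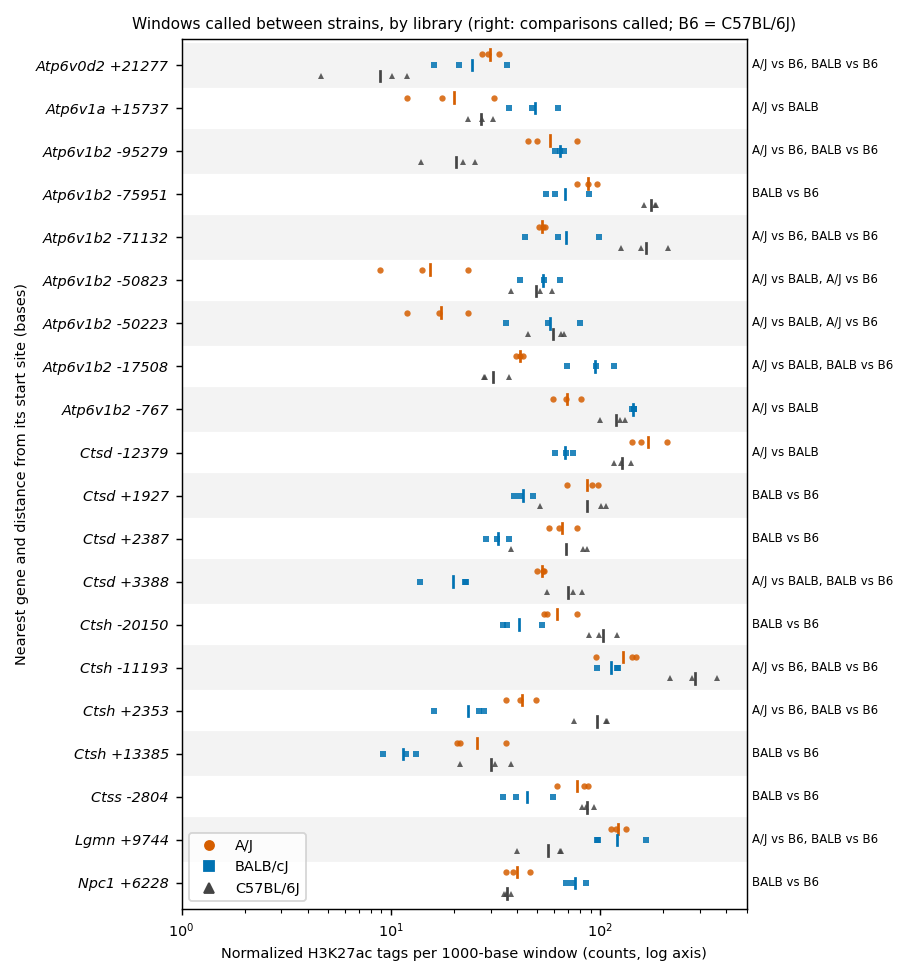
Normalized H3K27ac tags in 20 of the 21 windows called between strains, by library, on a log axis. Circles are A/J, squares BALB/cJ and triangles C57BL/6J, vertical ticks are strain means (n = 3), row names give the nearest gene and the distance of the window from its start site in bases, and the text on the right names the comparisons called, with groups that do not overlap in each called pair.

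The gene with the most called windows was *Atp6v1b2*, which encodes the B2 isoform of the V1 subunit B, with 7 of 17 tested windows and 4 called in each comparison. The window over its promoter at -767 (chr8:69087469-69088469, mm10) was the only called promoter window and was lower in A/J. It held 68.5, 59.3 and 80.9 tags in A/J, 144, 142 and 145 in BALB/cJ and 124, 100 and 130 in C57BL/6J. The A/J libraries were below every other library. The log2 fold change was -1.02 ± 0.23 for A/J over BALB/cJ (adjusted p = 0.00819), -0.75 ± 0.23 for A/J over C57BL/6J (adjusted p = 0.0456, under the fold threshold) and 0.27 ± 0.22 for BALB/cJ over C57BL/6J (adjusted p = 0.548). The window nearest the start site, at -75, overlaps it and was not called, with log2 fold changes of -0.17, -0.33 and -0.16. The call at -767 lay close to the fold threshold and ended without A/J replicate 1 (-1.0), without A/J replicate 2 (-0.95) and without replicate 2 of every strain (-0.96), at adjusted p-values of 0.0444, 0.0301 and 0.0184.

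The other 6 called windows of *Atp6v1b2* lay upstream, some in the neighboring gene *Slc18a1*, a vesicular monoamine transporter, and no readout here ties them to either gene. In intron 5 of 16 of *Slc18a1*, at -17508 (chr8:69070728-69071728), the levels were 39.8, 41.5 and 42.7 tags in A/J, 95.4, 117 and 69.4 in BALB/cJ and 28.0, 27.9 and 36.5 in C57BL/6J. BALB/cJ stood above both other strains, with a log2 fold change of -1.15 ± 0.28 for A/J over BALB/cJ (adjusted p = 0.0133) and 1.53 ± 0.29 for BALB/cJ over C57BL/6J (adjusted p = 5.11e-04). The first of these calls ended without A/J replicate 1 or 3 and without BALB/cJ replicate 1 or 2, at adjusted p-values of 0.0569 to 0.0638, and without replicate 2 of every strain (-1.0, adjusted p = 0.0482). A pair of overlapping windows in the 3′ UTR of *Slc18a1* (exon 17 of 17, at -50823 and -50223) was lower in A/J. At -50823 the levels were 14.0, 8.90 and 23.3 tags in A/J, 41.4, 64.1 and 54.0 in BALB/cJ and 37.3, 51.2 and 58.6 in C57BL/6J. At -50223 they were 16.9, 11.9 and 23.3 tags in A/J, 35.5, 80.1 and 56.2 in BALB/cJ and 45.3, 65.2 and 66.8 in C57BL/6J. No A/J library reached a library of another strain in either window. The log2 fold changes at -50823 were -1.60 ± 0.35 for A/J over BALB/cJ and -1.53 ± 0.35 for A/J over C57BL/6J (adjusted p = 0.00542 and 0.00444), of which the second call ended without C57BL/6J replicate 3 (-1.34, adjusted p = 0.0682). At -50223 they were -1.54 ± 0.35 and -1.65 ± 0.35 (adjusted p = 0.0079 and 0.00204), of which the call over BALB/cJ ended without replicate 2 of every strain (-1.19, adjusted p = 0.05).

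Farther upstream of *Atp6v1b2*, C57BL/6J stood apart from both other strains, in both directions. At -71132 (chr8:69017104-69018104) the levels were 50.8, 53.4 and 54.3 tags in A/J, 98.8, 43.5 and 62.8 in BALB/cJ and 156, 126 and 211 in C57BL/6J. The log2 fold change was -1.66 ± 0.28 for A/J over C57BL/6J (adjusted p = 1.71e-04) and -1.24 ± 0.27 for BALB/cJ over C57BL/6J (adjusted p = 0.0027), and the second call ended without C57BL/6J replicate 3 (-1.0, adjusted p = 0.0518). At -75951 the levels were 86.9, 77.1 and 96.4 tags in A/J, 88.7, 54.9 and 60.6 in BALB/cJ and 184, 161 and 181 in C57BL/6J. BALB/cJ over C57BL/6J was called there (-1.34 ± 0.24, adjusted p = 3.14e-04), while A/J over C57BL/6J (-1.0 ± 0.24, adjusted p = 0.00631) lay just under the fold threshold and was called with replicate number as a block (-1.01). At -95279 the order was the opposite, with 50.1, 77.1 and 45.3 tags in A/J, 66.7, 64.1 and 60.6 in BALB/cJ and 25.3, 14.0 and 22.0 in C57BL/6J. The log2 fold change was 1.35 ± 0.32 for A/J over C57BL/6J (adjusted p = 0.00626) and 1.58 ± 0.31 for BALB/cJ over C57BL/6J (adjusted p = 0.00103). C57BL/6J was thus the highest strain in some windows of this stretch and the lowest in another.

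Of the other V1 genes, *Atp6v1a* had 1 called window of 13 tested, in its intron 1 of 14 at +15737, with means of 20.1 ± 9.79 tags in A/J, 48.9 ± 13.2 tags in BALB/cJ and 27 ± 3.68 in C57BL/6J (SD, n = 3). A/J over BALB/cJ was -1.20 ± 0.34 (SE, adjusted p = 0.0467). Of all strain calls here it ended under the most alternatives tried. It ended by DESeq2, in fits on the libraries of both strains alone, and without A/J replicate 2 or 3, BALB/cJ replicate 1 or 3 or C57BL/6J replicate 1 or 3, at adjusted p-values of 0.0622 to 0.346 for these leave-outs. *Atp6v1c1*, *Atp6v1d*, *Atp6v1e1*, *Atp6v1f* and *Atp6v1h*, subunits of the stalks and the regulatory part of V1, had none. In the V0 sector only *Atp6v0d2* had a called window, in its intron 2 of 7 at +21277, with means of 29.7 ± 2.74 tags in A/J, 24.3 ± 10.3 tags in BALB/cJ and 8.91 ± 3.81 in C57BL/6J (SD, n = 3). The log2 fold change was 1.60 ± 0.43 for A/J over C57BL/6J (SE, adjusted p = 0.0177) and 1.41 ± 0.43 for BALB/cJ over C57BL/6J (adjusted p = 0.034). The first call ended without A/J replicate 3 or C57BL/6J replicate 3 (adjusted p = 0.0593 and 0.0892), and the second ended by DESeq2, in a fit on the libraries of both strains alone, and without BALB/cJ replicate 3 or any single C57BL/6J library (adjusted p = 0.06 to 0.289). Its mean over all libraries was 21 tags, near the filter of 16, so that it was tested through its higher strains. *Atp6v0a1*, *Atp6v0b*, *Atp6v0c* and *Atp6v0d1* had no called window. At *Atp6v0c* all 11 tested windows had a log2 fold change below 0 for BALB/cJ over C57BL/6J. Of these, 1 had an adjusted p under 0.05, against 6499 of all 60387 tested windows.

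Among proteases, *Ctsd* had differences of the same sign along most of its windows. Of its 21 tested windows, 20 had a positive log2 fold change for A/J over BALB/cJ, 14 of them at an unadjusted p under 0.05, 5 at an adjusted p under 0.05 and 2 past both thresholds. For BALB/cJ over C57BL/6J, 20 were negative, with 13, 6 and 3 by the same criteria, and for A/J over C57BL/6J 15 were positive, none of them at an unadjusted p under 0.05, while 1 of the 6 negative ones was. Of all 60387 tested windows, 8529, 2425 and 2192 met these criteria in either direction for A/J over BALB/cJ. For BALB/cJ over C57BL/6J 13469, 6499 and 5171 did. With replicate number as a block, *Ctsd* had 4 calls in place of 2 for A/J over BALB/cJ, adding +2387 (1.01, adjusted p = 0.00796) and +6637 (1.28, adjusted p = 0.0381). For BALB/cJ over C57BL/6J it had 4 in place of 3, adding +6637 (-1.35, adjusted p = 0.0141). Neighboring windows of 1 gene share tags and are not independent. The start site window at -83 differed little, with 291, 270 and 301 tags in A/J, 308, 302 and 340 in BALB/cJ and 346, 275 and 382 in C57BL/6J, and log2 fold changes of -0.14, -0.22 and -0.08. At -12379 (chr7:142399749-142400749, intergenic) the levels were 157, 208 and 141 tags in A/J, 60.8, 68.7 and 73.8 in BALB/cJ and 116, 140 and 126 in C57BL/6J. BALB/cJ was the lowest strain, with 1.29 ± 0.24 for A/J over BALB/cJ (adjusted p = 0.001) and -0.90 ± 0.24 for BALB/cJ over C57BL/6J (adjusted p = 0.013, under the fold threshold).

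The other called windows of *Ctsd* lay within the gene. In intron 2 of 8, at +3388 (chr7:142383982-142384982), there were 50.1, 53.4 and 53.7 tags in A/J, 22.8, 13.7 and 22.6 in BALB/cJ and 81.3, 55.9 and 73.7 in C57BL/6J. Each BALB/cJ library was below all libraries of the other strains, and the log2 fold change was 1.32 ± 0.30 for A/J over BALB/cJ (adjusted p = 0.00874) and -1.77 ± 0.30 for BALB/cJ over C57BL/6J (adjusted p = 1.57e-04). At +1927, in intron 1 of 8, the levels were 91.3, 97.9 and 69.2 tags in A/J, 38.8, 41.2 and 47.5 in BALB/cJ and 107, 51.2 and 101 in C57BL/6J. At +2387, in a window over exon 2 of 9 that shares 540 bases with the one before, they were 63.3, 77.1 and 56.9 tags in A/J, 32.1, 36.6 and 28.5 in BALB/cJ and 86.6, 37.3 and 82.5 in C57BL/6J. C57BL/6J replicate 2 was close to the BALB/cJ libraries in both. BALB/cJ over C57BL/6J was -1.05 ± 0.28 (adjusted p = 0.0155) at +1927, which ended without BALB/cJ replicate 1 or C57BL/6J replicate 1 or 3 (-0.98, -0.90 and -0.93). It was -1.17 ± 0.31 (adjusted p = 0.0126) at +2387, which ended without BALB/cJ replicate 3 or C57BL/6J replicate 1 or 3 (adjusted p = 0.0819 to 0.11).

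*Ctsh*, an aminopeptidase, had 4 called windows of 14 tested, all lower in BALB/cJ than in C57BL/6J and 2 of them also lower in A/J. In intron 1 of 10, at +2353 (chr9:90056120-90057120), the levels were 35.3, 41.5 and 49.2 tags in A/J, 27.9, 16.02 and 26.3 in BALB/cJ and 107, 74.5 and 108 in C57BL/6J. The 3 strains did not overlap there, and the log2 fold change was -1.98 ± 0.29 for BALB/cJ over C57BL/6J (adjusted p = 2.88e-05) and -1.21 ± 0.28 for A/J over C57BL/6J (adjusted p = 0.00487), of which the second call ended without C57BL/6J replicate 3 (-1.12, adjusted p = 0.0525). At -11193 (chr9:90042574-90043574, intergenic) there were 149, 94.9 and 142 tags in A/J, 120, 96.1 and 121 in BALB/cJ and 275, 214 and 362 in C57BL/6J. C57BL/6J stood above both other strains, with -1.12 ± 0.24 for A/J over C57BL/6J (adjusted p = 0.00205) and -1.33 ± 0.24 for BALB/cJ over C57BL/6J (adjusted p = 3.10e-04). The first of these fell under the fold threshold without A/J replicate 2 (-0.98) and without C57BL/6J replicate 3 (-0.90).

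At -20150 of *Ctsh* the levels were 53.7, 77.1 and 55.6 tags in A/J, 52.4, 34.3 and 35.8 in BALB/cJ and 98.6, 88.5 and 120 in C57BL/6J, with -1.32 ± 0.27 for BALB/cJ over C57BL/6J (adjusted p = 0.00142). A/J lay between the other strains there. The window at +13385, in intron 7 of 10, was low, with means of 25.9 ± 8.45 tags in A/J, 11.4 ± 2.03 tags in BALB/cJ and 30.0 ± 8.07 in C57BL/6J (SD, n = 3). Its call for BALB/cJ over C57BL/6J (-1.32 ± 0.40, adjusted p = 0.0338) ended by DESeq2, without replicate 2 of every strain (adjusted p = 0.0819), and without any of the 3 BALB/cJ libraries or C57BL/6J replicate 2 or 3 (adjusted p = 0.0688 to 0.147).

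*Ctsl* had 1 called window of 8 tested, whose values are not reported here. *Ctss*, the cathepsin known for cleaving the invariant chain of MHC class II, had 1 called window of 6 tested, at -2804. The levels were 87.6, 83.1 and 62.1 tags in A/J, 39.7, 59.5 and 34.3 in BALB/cJ and 85.3, 93.1 and 81.2 in C57BL/6J, with BALB/cJ lowest. BALB/cJ over C57BL/6J was -1.02 ± 0.28 (adjusted p = 0.0159), and the call ended without BALB/cJ replicate 1 or 3 or C57BL/6J replicate 2 (-0.96, -0.85 and -0.97).

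*Lgmn*, the asparaginyl endopeptidase legumain, which processes cathepsins to their mature forms, had 49 tested windows and 1 called, in its intron 1 of 13 at +9744 (chr12:102429569-102430569). The levels were 132, 113 and 119 tags in A/J, 96.3, 165 and 97.1 in BALB/cJ and 40.0, 65.2 and 64.2 in C57BL/6J. C57BL/6J was lower than both other strains, with 1.11 ± 0.27 for A/J over C57BL/6J (adjusted p = 0.00797) and 1.04 ± 0.27 for BALB/cJ over C57BL/6J (adjusted p = 0.0122). Both calls ended without C57BL/6J replicate 1 (0.91 and 0.85), and the second also without BALB/cJ replicate 2 (0.78), without replicate 2 of every strain (0.83) and with replicate number as a block (1.00, adjusted p = 4.89e-04). *Npc1*, which exports cholesterol from the lysosome, had 1 called window of 5 tested, in its intron 1 of 24 at +6228 (chr18:12229658-12230658). It held 38.3, 35.6 and 45.9 tags in A/J, 85.3, 68.7 and 73.0 in BALB/cJ and 34.6, 37.3 and 35.3 in C57BL/6J. BALB/cJ was the highest strain in all of its libraries, and BALB/cJ over C57BL/6J was 1.10 ± 0.27 (adjusted p = 0.00799), with the call ending without BALB/cJ replicate 1 or C57BL/6J replicate 3 (adjusted p = 0.0511 and 0.0547).

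**Figure D3:**
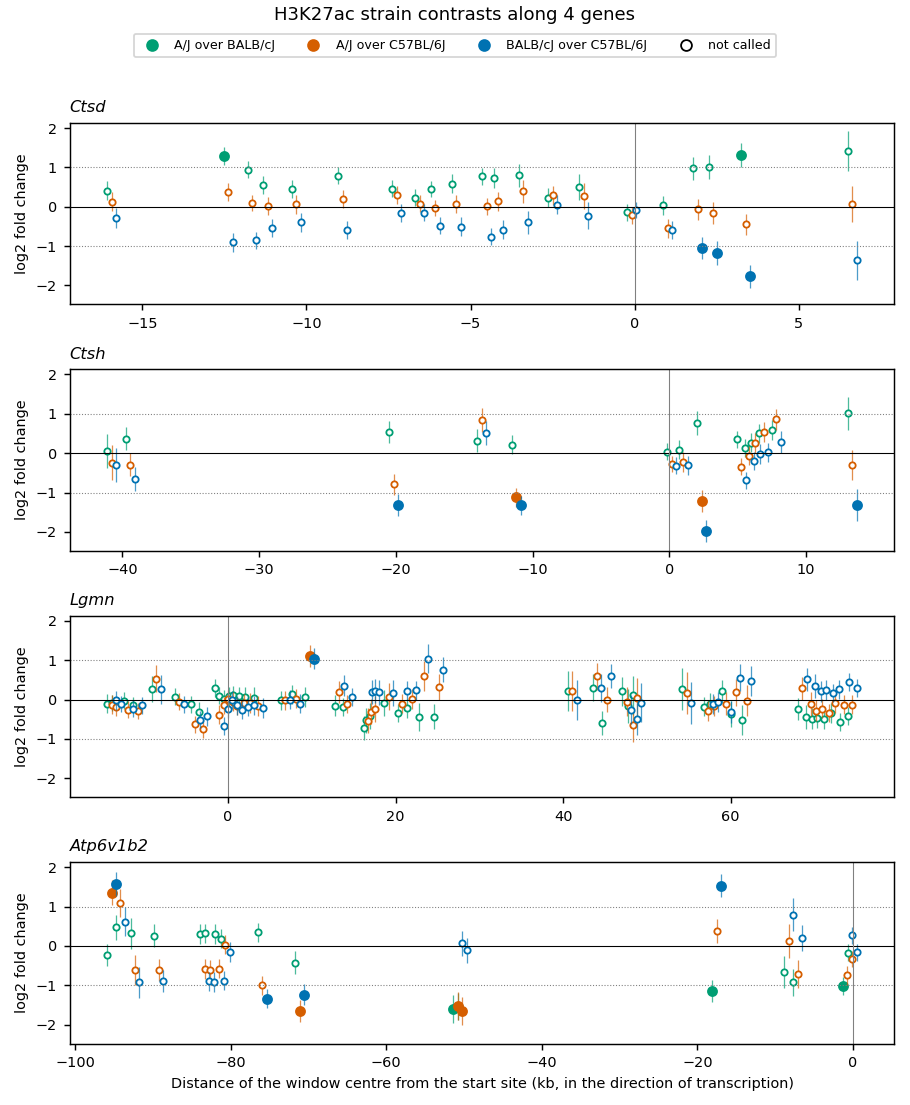
Log2 fold changes of H3K27ac (± SE) in every tested window of *Ctsd*, *Ctsh*, *Lgmn* and *Atp6v1b2*, against the distance of the window from the start site in kb in the direction of transcription. Green is A/J over BALB/cJ, orange A/J over C57BL/6J and blue BALB/cJ over C57BL/6J, filled points are called, points of a window are set slightly apart sideways, and the windows of *Ctsd* are positive for A/J over BALB/cJ at 20 of 21 positions.

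Genes without a called window still held most of the tested windows of the set. *Ctsc*, which activates serine proteases of granules, had 44 tested windows, of which 35 were negative for BALB/cJ over C57BL/6J with 2 at an adjusted p under 0.05. *Psap*, the precursor of the saposins, had 27 tested windows, of which 24 were negative for A/J over C57BL/6J with 7 at an unadjusted and 1 at an adjusted p under 0.05. *Tfeb*, the regulator best known for lysosome formation, had 16 tested windows, with 1 at an adjusted p under 0.05 in each comparison of A/J. *Ctsb* had 26 tested windows with 0 at an adjusted p under 0.05 in any comparison, and 2, 1 and 0 at an unadjusted p under 0.05. The shares given for *Ctsc* and *Ctsb* were thus below those of all windows. At *Psap* the adjusted share was below that of all windows and the unadjusted share above it. All 10 tested windows of *Lamp1*, the major glycoprotein of the lysosomal membrane, were positive for A/J over BALB/cJ, with a median log2 fold change of 0.26 and 0 at an unadjusted p under 0.05.

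The alleles of CB6F1/J hybrids were compared to ask whether differences between BALB/cJ and C57BL/6J are also seen between their alleles within the same cells. Allelic tags come only from reads over a variant, so most regions could not be read. Of 968 regions of the 33 genes, 736 had no allelic count and 44 at 15 genes passed the filter, with 97.5 to 1067 allelic counts summed over alleles and libraries (median 221). For the other 18 genes no region was tested. Of the 44, 2 were called (BALB/cJ allele over C57BL/6J allele), against 6.54% of the 4467 regions tested in all, and the median log2 fold change was 0.03, against 0.01 over all regions. This fit did not pair the alleles of a library, and the paired fit given below called 0 regions.

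The region at -739 of *Atp6v1b2* (chr8:69087897-69088097), whose sequence is given above, held 51.7, 102 and 100.1 normalized counts on the BALB/cJ allele and 27.6, 41.4 and 34.1 on the C57BL/6J allele in the 3 libraries. The BALB/cJ allele was higher in 3 of 3 libraries, with a log2 fold change of 1.30 ± 0.33 (SE, adjusted p = 0.0198). In the strains the window over this region, at -767, gave 0.27 ± 0.22 for BALB/cJ over C57BL/6J. The region at -31 of *Ctsl* (chr13:64370451-64370651) held 41.6, 98.5 and 82.9 counts on the BALB/cJ allele and 138, 199 and 239 on the C57BL/6J allele. The BALB/cJ allele was lower in 3 of 3 libraries, with -1.35 ± 0.29 (adjusted p = 0.00553), and the strains gave -0.58 ± 0.21 in the start site window around it. Both calls ended in the fit with the library as a block, in which the alleles of a library are paired and 0 of all 4467 regions were called (782 at an unadjusted p under 0.05 and a lowest adjusted p of 0.0586). In that fit the log2 fold changes were 1.29 (adjusted p = 0.0783) for *Atp6v1b2* and -1.38 (adjusted p = 0.0593) for *Ctsl*. The call at *Ctsl* also ended without CB6F1/J replicate 3 (-1.21, adjusted p = 0.264), and that at *Atp6v1b2* without replicate 2 or 3 (1.30 and 1.18, adjusted p = 0.195 and 0.389).

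Of the 16 windows called between BALB/cJ and C57BL/6J, 3 had no allelic count and 2 had enough counts to be tested when the regions inside the window were summed. At -71132 of *Atp6v1b2* the allele log2 fold change was -0.77 ± 0.42 (146 counts, adjusted p = 0.382), against -1.24 in the strains. At +6228 of *Npc1* it was 0.43 ± 0.57 (104 counts, adjusted p = 0.87), against 1.10 in the strains. The other 11 windows held 6 to 97 allelic counts each, which was below the filter, so a difference between the alleles was not detectable there at this depth. An interaction term then compared the contrast of strains with that of alleles in 39 windows that had a tested region. Each window of 1000 bases was joined to the region of 200 bases with the nearest midpoint within 500 bases. The strain contrast therefore covers more sequence than the allele contrast, and neighboring windows can share a region. By edgeR 0 of the 39 differed at an adjusted p under 0.05, against 2.84% of 3869 windows, with 6 at an unadjusted p under 0.05. The lowest adjusted p was 0.159, at -767 of *Atp6v1b2*, where the difference of strain minus allele log2 fold change was -1.08 ± 0.38. With replicate number as a block this window (-1.09, adjusted p = 0.0234) and the one at -82653 of *Atp6v1b2* (-1.33, adjusted p = 0.0454) passed. At -82653 the strain contrast was -0.92 ± 0.25 and the allele contrast 0.32 ± 0.53.

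**Figure D4:**
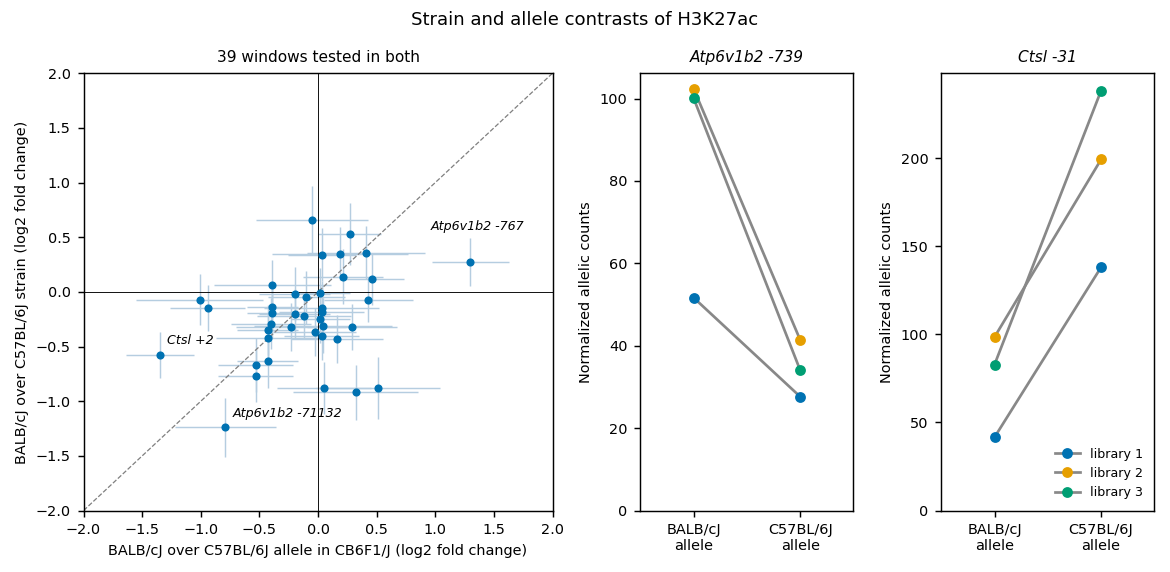
Left, log2 fold changes (± SE) of BALB/cJ over C57BL/6J in the strains against those of the BALB/cJ over the C57BL/6J allele in CB6F1/J, for 39 windows, with the dashed line marking equal values and names at windows called in either. Middle and right, normalized allelic counts of the *Atp6v1b2* region at -739 and the *Ctsl* region at -31, with lines joining the alleles of each of the 3 libraries, which run in 1 direction in both regions.

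Lysosomal genes outside this set gave a wider comparison. A list of 76 further lysosome and V-ATPase genes had 71 with a window and 356 tested windows, of which 11, 21 and 22 were called in A/J over BALB/cJ, A/J over C57BL/6J and BALB/cJ over C57BL/6J (3.09%, 5.90% and 6.18%), against 1.68%, 2.16% and 3.84% for the 33 genes. The difference between these lists was not tested. The windows called at least once numbered 33, at 16 genes. They included promoter windows, named here after their values were seen, with log2 fold changes given for BALB/cJ over C57BL/6J. These were of *Atp6v0e2*, a V-ATPase gene (4.1), and of *Cd63*, a tetraspanin of late endosomes and lysosomes (3.68). Others were of *Clcn7*, a chloride and proton exchanger of the lysosome (-2.28), of *Arsb* (1.47), and of *Tfe3*, the MiT/TFE member outside the set (1.02).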

How the data were processed

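H3K27ac was analysed in 9 libraries of the inbred strains and 3 of CB6F1/J, with 7 ChIP inputs of the strains. CB6F1/J inputs were not used here. Per the paper's methods and the submitters' processing notes, the authors mapped reads with Bowtie2 to each strain's own genome, shifted them to mm10 with MMARGE and counted tags with HOMER, whose versions are not given in the sources used here. The deposited values are raw counts in windows of 1000 bases for the first and the third library of a strain. Replicate 2, the inputs and the CB6F1/J alleles were deposited in the form of expected counts in steps of 0.5, whose origin is not stated, and were rounded to whole numbers before each fit. The 6 CB6F1/J columns of all perfectly mapped reads were left out, and only reads over variants were used. CB6F1/J regions were deposited at 200 bases, whereas the paper's methods describe 1000 bases. Of 1575 pairs of neighboring regions that start 200 to under 500 bases apart with at least 100 allelic counts in one, 825 (52.4%) had 0 in the other, which windows of 1000 bases would largely share, so the counts were read as covering 200 bases.

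The 9 parental libraries were fitted together in edgeR 4.0.16 (R 4.3.3) with TMM scaling, robust quasi-likelihood tests and the 3 strain pairs as contrasts, and alleles were fitted apart on autosomes. Windows with a mean normalized count over 16 were tested (60387 of 96381), normalized counts being scaled from a library's effective size to the mean of all sizes. P-values were adjusted by Benjamini-Hochberg over all windows, and a call needs an adjusted p under 0.05 together with a log2 fold change above 1 or below -1 (for the interaction, the adjusted p alone). Standard errors were obtained as the size of the log2 fold change over the root of F. Effective sizes were 2454651 to 11561221 in strains and 197921 to 370373 in alleles, with a biological coefficient of variation of 0.214 and 0.314. The fit was tested on simulated data for A/J over C57BL/6J in 59394 windows, in which 90 of 92 windows with a 4-fold change were recovered, 17 of 50 and 10 of 45 windows with a 2-fold rise and fall passed the adjusted p, and 4 of 59207 unchanged ones passed the adjusted p. These numbers leave out simulated windows that failed the filter on low counts. The simulation gave every window the same biological coefficient of variation, unlike the real data.

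Members and lists were chosen with earlier results of these data known. The text names the window nearest each start site, every called window other than 1 that is not reported here, and every called allelic region, with values per library for the highest start site of each role and for called windows with a mean of at least 50 in the higher strain. Replicate numbers are shared by the strains' labels. After removal of strain means, libraries of the same number correlated at 0.227 to 0.414 in all 9 pairs, against -0.317 to 0.0629 for different numbers, and the alleles of a library at 0.168 to 0.182, so the numbers were taken to pair the libraries and a replicate block was fitted as an alternative. Other alternatives were DESeq2 1.42.0, other size factors, other filters, other rounding, fits on both strains alone and leaving out libraries. Promoters are RefSeq's, on GRCm38, and windows were read from the mm10 genome with Python 3.11.15.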

Additional observations from a re-analysis of the deposited data

How the results depend on the processing

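Leaving out each library in turn gave 5 to 9 called windows for A/J over BALB/cJ, 5 to 13 for A/J over C57BL/6J, 10 to 18 for BALB/cJ over C57BL/6J, 0 to 2 called allelic regions, and 0 to 0 windows in which strain and allele contrasts differed. C57BL/6J replicate 3 gave the lowest counts of both comparisons with C57BL/6J (5 and 10). Without CB6F1/J replicate 2 only the *Ctsl* region of the 2 allelic calls passed, and without replicate 3 neither did. Without replicate 2 of every strain, A/J over C57BL/6J had 16 calls in place of 9. Scaling by the study's library totals, chosen after seeing the data, gave 4 calls in place of 7 for A/J over BALB/cJ, ending those at -17508 and -767 of *Atp6v1b2* and at +15737 of *Atp6v1a*. For BALB/cJ over C57BL/6J it gave 11 in place of 16, without *Ctss* at -2804, *Ctsh* at +13385, *Atp6v0d2* at +21277 and *Ctsd* at +1927 and +2387. It moved the median of all windows to at most 0.05, and the cause was not tested. With the replicate block, calls numbered 10, 13 and 18 in the 3 strain comparisons, 0 for alleles and 2 for the interaction. Beside those given above, calls added by the block were *Ctsl* at -27767 in both comparisons with C57BL/6J, *Ctsl* at +26214 and *Atp6v1b2* at -94167 in A/J over C57BL/6J, *Lgmn* at +23357 in BALB/cJ over C57BL/6J and *Atp6v0d1* at +21996 in A/J over BALB/cJ, and the block ended no strain call other than that of *Lgmn* given above. Counts by the other alternatives stayed within 1.5 times. Active shares were 78.7%, 79.7% and 77.9% at 16 tags for A/J, for BALB/cJ and for C57BL/6J, and 48.9%, 49.1% and 49.7% at 64 tags. Of the log2 fold changes of single windows under all alternatives, none reversed, 65 lost their call and 2247 kept their side of the threshold. The 2247 include contrasts that were never called, so these numbers do not show how often calls held. Most strain calls and both allelic calls ended under at least 1 alternative. Calls whose window failed the filter of an alternative are not among the 65. The planned scaling by totals in the column headers was not run, since the headers used here hold none. Windows tested in the strains but with few variant-spanning reads limit what the alleles can show.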
